A study of Mus musculus with 6 samples.

Results

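The transcription factor NRF2, its inhibitor KEAP1 and 8 antioxidant genes that NRF2 is known to drive were measured in mouse hepatocytes with and without overexpressed AEG-1. The members were taken by gene symbol from a list of 10 named genes (Nfe2l2, Keap1, Nqo1, Hmox1, Gclc, Gclm, Txnrd1, Srxn1, Slc7a11 and Osgin1), by a rule that uses no measured value, although the list was drawn up with earlier results of these data known. All 10 were found among the 12393 genes on the array, through 17 probe sets that carry a single gene symbol. The data are 6 Affymetrix expression arrays of untreated primary hepatocytes harvested 24 h after plating on collagen, from mice of a mixed B6/CBA strain. Alb/AEG-1 hepatocytes, from transgenic mice labelled as overexpressing AEG-1 (astrocyte elevated gene 1, symbol Mtdh) in hepatocytes alone, gave 3 arrays, and WT hepatocytes gave 3. The number of founder lines and the kinship of transgenic and WT animals were not given in the sources used here. Values are RMA signals on the log2 scale, and each gene is represented by its brightest probe set unless stated otherwise.

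NRF2, encoded by Nfe2l2, binds antioxidant response elements in DNA together with a small MAF protein and switches on genes that make glutathione, reduce thioredoxin and peroxiredoxin, and detoxify quinones and heme. In unstressed cells KEAP1 holds NRF2 for ubiquitination by a cullin 3 ligase and so for degradation, so that NRF2 activity is set largely at the protein level, which these arrays do not measure. BACH1, a repressor that responds to heme, competes for the same elements, and Hmox1 is its best known target. In liver the pathway protects against electrophiles and drugs.

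The brightest Mtdh probe set read 10.72, 10.40 and 10.81 in Alb/AEG-1 arrays, against 8.75, 8.78 and 8.64 in WT arrays, a difference of 1.92 (SE 0.10, limma adjusted p = 2.04e-05). Of the 6 Mtdh probe sets this was the only one past the threshold, and the others differed by -0.27 to 0.24. The species and extent of the transgene sequence were not given in the sources used here, and it is unknown which probes match it. The arrays had medians from 5.61 to 5.64. The log2 signal of 3' minus 5' control probe sets averaged 0.10 in Alb/AEG-1 and 0.07 in WT arrays for Gapdh, and 0.875 in Alb/AEG-1 and 0.895 in WT arrays for Actb (exact permutation p = 0.6 and 0.5, two-sided, with 0.1 the smallest possible). None of 9 measured hepatocyte markers, Alb and Ttr among them, passed the threshold (0 by limma), and their summed level was 16.95 to 16.98 in Alb/AEG-1 and 16.94 to 16.98 in WT arrays.

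Of the 10 members 6 had a difference above 0 and 4 below it, beside 6575 and 5818 of all 12393 genes. Srxn1, which encodes sulfiredoxin, rose 1.40-fold in Alb/AEG-1 hepatocytes and Hmox1, which encodes heme oxygenase 1, rose 1.22-fold. The other 8 genes, including Nfe2l2, Keap1, the glutathione synthesis genes Gclc and Gclm and the common NRF2 marker gene Nqo1, did not pass the threshold of 0.05 on the adjusted p. Thus 2 of 10 members passed, both higher. Of all genes 15.9% passed in either direction, 6.83% as higher and 9.05% as lower. The share of members is near that of the array at this number of genes. With 1 array left out, 1 member passed in 5 of 6 cases, the Hmox1 call being the one lost, and the genes called over the whole array numbered 1267 to 1700 against 1967, the fewest without transgenic replicate 1. The median difference over the members was 0.07, beside 0.01 over all genes. Alb/AEG-1 and WT values were fully separated for 5 members, 3 of them higher and 2 lower in Alb/AEG-1 cells, and for 34.5% of all genes.

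**Figure D1:**
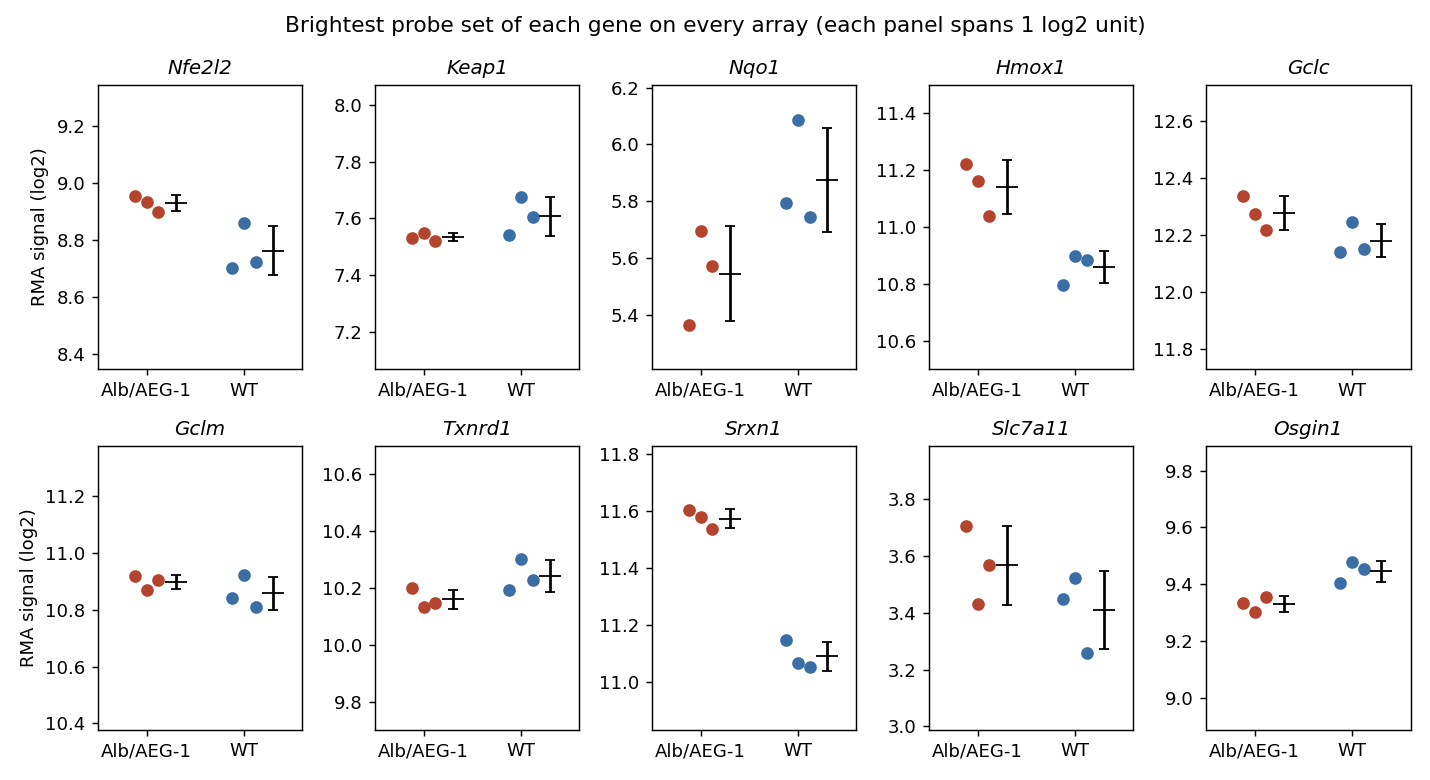
RMA signal (log2 scale, y axis) of the brightest probe set of each of the 10 genes on each Alb/AEG-1 array (red) and WT array (blue), in panels that each span 1 log2 unit. Points are arrays and the black marks are the mean ± SD (n = 3 per genotype). Srxn1 has the widest gap, with 11.54 or more in Alb/AEG-1 and 11.15 or less in WT arrays, while Gclm, Txnrd1 and Keap1 overlap.

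Srxn1 is shown first in sequence because its difference was the largest of the members. RefSeq promoter windows of build GRCm38.p6, from 250 bases before to 50 bases after the gene start, were found for 8 of the 10 genes, in 10 windows. Gclc and Hmox1 had no entry. The core of the antioxidant response element was searched on both strands as TGACNNNGC. It occurred in 4 of the 10 windows, 1 each of Nfe2l2, Gclm, Txnrd1 and Srxn1, and in 12.4% of all 32851 windows. The form TGAGNNNGC, chosen after the windows had been read, occurred in 3 of the 10, those of Srxn1, Slc7a11 and Osgin1, and in 17.6% of all windows. The AP-1 site TGANTCA occurred in the windows of Srxn1 and Osgin1 and in 7.81% of all windows.

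The 250 bases before the Srxn1 start (chr2:152105274-152105523, plus strand) are printed with matches to TGAGNNNGC on either strand in capitals.
Srxn1 promoter: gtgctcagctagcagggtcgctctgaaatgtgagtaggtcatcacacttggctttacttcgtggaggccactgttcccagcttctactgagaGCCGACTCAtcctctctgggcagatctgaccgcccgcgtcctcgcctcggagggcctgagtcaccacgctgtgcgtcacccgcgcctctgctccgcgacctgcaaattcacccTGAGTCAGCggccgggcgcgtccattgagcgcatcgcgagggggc
The match TGAGTCAGC begins 45 bases before the start and overlaps an AP-1 site, and the same 9 letters occur on the other strand of the Osgin1 window. The Srxn1 match to TGACNNNGC begins 28 bases after the start, outside the printed 250 bases. The next lines set the Srxn1 and Osgin1 matches to TGAGNNNGC beside 1 match of each other gene that had one. Each is in a stretch of 29 bases read in the direction of its gene, with the match in capitals. Nfe2l2 and Slc7a11 lie on the minus strand, the others on the plus strand. The lines of Srxn1, Osgin1 and Slc7a11 show TGAGNNNGC, and the others show TGACNNNGC.
Srxn1 (chr2:152105469-152105497): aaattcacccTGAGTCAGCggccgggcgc
Osgin1 (chr8:119437038-119437066): aggggcccctGCTGACTCAcgcttatgaa
Slc7a11 (chr3:50443692-50443720): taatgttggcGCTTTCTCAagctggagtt
Nfe2l2 (chr2:75704885-75704913): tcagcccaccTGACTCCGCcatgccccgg
Gclm (chr3:122245413-122245441): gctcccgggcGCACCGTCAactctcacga
Txnrd1 (chr10:82859104-82859132): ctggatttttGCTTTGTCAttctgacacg
Genes with a match fell on both sides of 0. Srxn1 and Osgin1, which share the 9 letters, had differences of 0.48 and -0.12. A match describes letters in this window and is not evidence of binding, and elements farther from the start were not searched.

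Among the regulators, Nfe2l2 read 8.96, 8.93 and 8.90 in Alb/AEG-1 arrays, against 8.70, 8.86 and 8.72 in WT arrays. Each Alb/AEG-1 array was above each WT array, with a gap of 0.038 between the nearest pair. The difference was 0.17 (SE 0.06, 95% confidence interval 0.02 to 0.31), with an unadjusted limma p of 0.0271 and an adjusted p of 0.115. It passed with a variance trend (adjusted p = 0.0369) and when only genes above the array median were tested (adjusted p = 0.0457).

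Keap1 has 2 probe sets that differed in sign. The brighter read 7.53, 7.55 and 7.52 in Alb/AEG-1 arrays, against 7.54, 7.68 and 7.60 in WT arrays, and the groups overlapped (difference -0.07, 95% confidence interval -0.21 to 0.06, adjusted p = 0.452). The dimmer gave 0.11 (SE 0.12, adjusted p = 0.608 over all probe sets), so the mean of both gave 0.02.

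The list of genes that control NRF2 or share its elements had 19 of its 20 genes measured. In it 1 rose, 1 fell and 17 did not pass, with a median of -0.04. Bach1, the repressor, rose by 0.26 (SE 0.06, adjusted p = 0.0170), with 10.74, 10.78 and 10.72 in Alb/AEG-1 arrays and 10.44, 10.48 and 10.54 in WT arrays. Its second probe set gave 0.09, the mean of both did not pass (0.17, adjusted p = 0.160), and the call was lost without transgenic replicate 1, transgenic replicate 2 or wild-type replicate 2 (adjusted p = 0.0584, 0.0607 and 0.0508). The gene that fell was Rxra, a nuclear receptor whose protein can bind and restrain NRF2, at -0.38 (SE 0.06, adjusted p = 0.00610). Its other probe set gave 0.06, and the mean of both, -0.16, did not pass (adjusted p = 0.0658). Cul3, the cullin of the KEAP1 ligase, gave -0.25 (adjusted p = 0.0617) and Sqstm1, the autophagy adaptor p62 that sequesters KEAP1, gave 0.25 (adjusted p = 0.0687), both chosen for their role after their values were seen. The small MAF gene Mafg, chosen likewise, gave 0.00 (SE 0.06).

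Sulfiredoxin reduces peroxiredoxins that hydrogen peroxide has overoxidised, and its gene Srxn1 changed the most of the 10. The brightest probe set, 1451680_at, read 11.60, 11.58 and 11.54 in Alb/AEG-1 arrays, against 11.15, 11.07 and 11.05 in WT arrays. Groups were separated by 0.389, several times the SD within a genotype (0.03 in Alb/AEG-1 and 0.05 in WT arrays). The difference of 0.48 (SE 0.06, 95% confidence interval 0.36 to 0.61) had an adjusted p of 0.000959 and was larger in size than those of 95.7% of genes.

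The other Srxn1 probe sets moved the same way. Over all probe sets tested, of which 12% passed, 1426875_s_at gave 0.41 (adjusted p = 0.00554), 1425351_at gave 0.42 (adjusted p = 0.00226) and 1419942_at gave 0.26 (adjusted p = 0.0401). All 4 passed as higher and in each the genotypes did not overlap. The dimmest, 1419942_at, at 7.73 ± 0.03 in Alb/AEG-1 and 7.47 ± 0.09 in WT arrays (SD, n = 3), had the smallest difference. Probe sets of a gene share the same RNA and are not replicates. Srxn1 passed under all 16 alternatives run, with differences from 0.39 to 0.51.

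**Figure D2:**
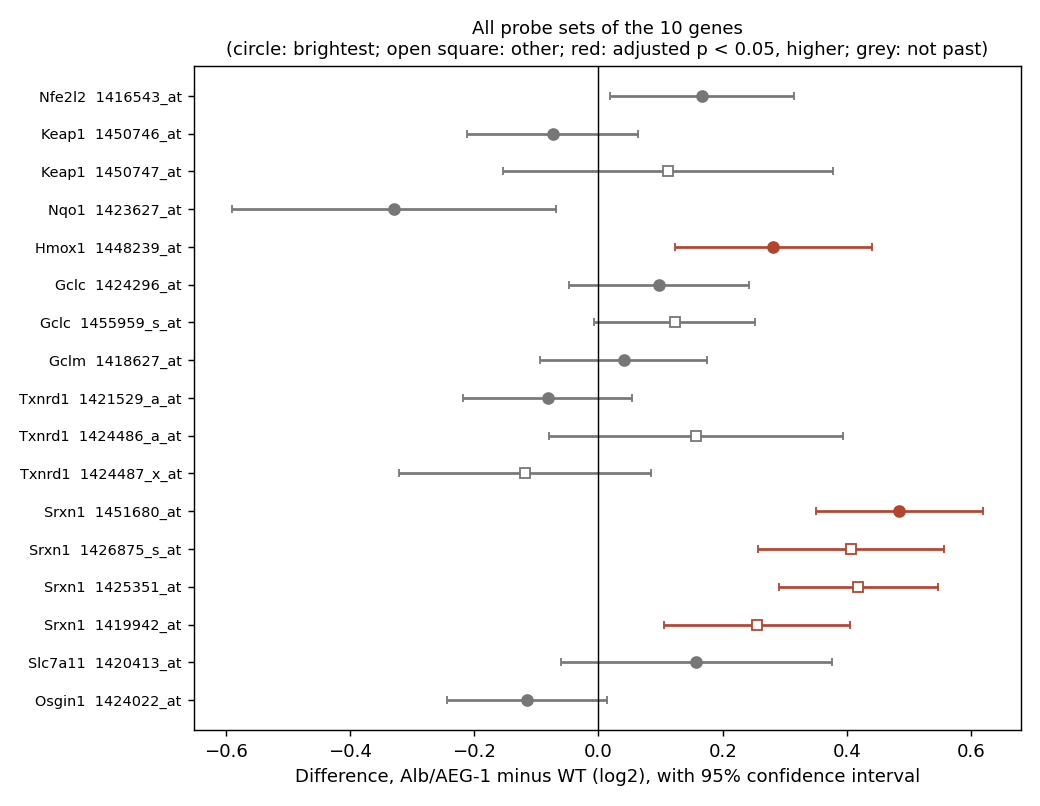
Difference between genotypes, Alb/AEG-1 minus WT (log2, x axis), with its 95% confidence interval from limma, for each of the 17 probe sets (rows). Filled circles are the brightest probe set of a gene and open squares the others. All 4 Srxn1 probe sets and the Hmox1 probe set lie to the right of 0 and past the threshold (red), and the other 12 are grey.

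Thioredoxin reductase, encoded by Txnrd1, returns oxidised thioredoxin to use. Its brightest probe set read 10.20, 10.13 and 10.15 in Alb/AEG-1 arrays, against 10.19, 10.30 and 10.23 in WT arrays, which overlap (-0.08, 95% confidence interval -0.21 to 0.05, adjusted p = 0.392). The other 2 Txnrd1 probe sets, at 5.754 and 3.474 in Alb/AEG-1 and 5.597 and 3.592 in WT arrays, gave 0.16 and -0.12. All 3 may match several transcripts, by the letters in their names.

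The glutathione and thioredoxin list, 30 of 35 genes measured, held 4 that rose, 4 that fell and 22 that did not pass, with a median of -0.06. Txnip, an inhibitor of thioredoxin that also responds to glucose, fell by 1.04 (SE 0.06, adjusted p = 3.34e-05), and its dimmer probe set by 0.40. Glrx, which encodes glutaredoxin and removes glutathione from proteins, rose by 0.31 (SE 0.05, adjusted p = 0.00585) on its brightest probe set and by 0.42 on the other. Thioredoxin itself, Txn1, chosen for its role after its value was seen, gave -0.02 (SE 0.05). Of the peroxiredoxin genes, chosen after their values were seen as substrates or relatives of substrates of sulfiredoxin, Prdx4 rose by 0.39 (SE 0.07, adjusted p = 0.00720) on 1 of its 3 probe sets, and the mean of the 3 did not pass (0.23, adjusted p = 0.0862). Prdx3 gave -0.17 (adjusted p = 0.0674) and Prdx2 gave -0.07 (adjusted p = 0.468). Prdx1, Prdx5 and Prdx6 were among the listed genes not measured.

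Heme oxygenase 1, the product of Hmox1, opens the heme ring to yield biliverdin, carbon monoxide and iron. Its single probe set read 11.22, 11.16 and 11.04 in Alb/AEG-1 arrays, against 10.80, 10.90 and 10.88 in WT arrays, so every Alb/AEG-1 array was above every WT array, by 0.138 at the nearest. The difference was 0.28 (SE 0.07, 95% confidence interval 0.13 to 0.43, adjusted p = 0.0259). This call was lost with the replicate block (adjusted p = 0.0637) and when any 1 array other than transgenic replicate 3 was left out. Without transgenic replicates 1 and 2 in turn the adjusted p was 0.0919 and 0.0782, and without wild-type replicates 1, 2 and 3 in turn it was 0.0682, 0.0552 and 0.0640.

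Of 10 other heme and iron genes measured, 0 passed as higher and 3 as lower by limma, with a median of 0.04. A further 5 that did not pass, Hpx, Fech, Hmox2, Blvra and Fth1, had every Alb/AEG-1 array above every WT array, with differences of 0.05 to 0.14. Over the whole array 2092 of 12393 genes were separated in this direction. Alas1, the rate-limiting enzyme of heme synthesis in liver, fell by 0.73 (SE 0.07, adjusted p = 0.000460), with 11.02, 11.16 and 10.91 in Alb/AEG-1 arrays and 11.77, 11.79 and 11.73 in WT arrays. Blvrb, a biliverdin reductase, fell by 0.26 (SE 0.05, adjusted p = 0.0131), a call lost without transgenic replicate 1 (adjusted p = 0.0568). Abcb6, a porphyrin transporter gene, fell by 0.26 (SE 0.07, adjusted p = 0.0332), a call lost in all leave-outs but that of wild-type replicate 3, with an adjusted p of up to 0.105. Without transgenic replicate 1, 1 gene of the list passed. Hmox2, the constitutive heme oxygenase gene, gave 0.11 (adjusted p = 0.219), Blvra, the main biliverdin reductase gene, gave 0.14 (adjusted p = 0.185) and the ferritin heavy chain gene Fth1 gave 0.05 (adjusted p = 0.582), all 3 chosen for their role after their values were seen.

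Macrophages and endothelial cells of the liver can express Hmox1 too, so markers of other cells are given beside it. Of 19 measured Kupffer cell and macrophage markers 4 rose and 2 fell, with a median difference of 0.12. Their summed level was 11.35 to 11.39 in Alb/AEG-1 and 11.30 to 11.39 in WT arrays, which overlap. Bright markers weigh most in this sum, and the brightest, Cd14, was among those that fell. Those that rose were Marco (0.69), Ptprc (0.61), Mrc1 (0.46) and C1qc (0.35), and those that fell were Cd14 (-0.45) and Cd163 (-0.31). Cd163, with a mean of 3.89 in Alb/AEG-1 and 4.20 in WT arrays, lay under the array median of 5.63. Ptprc, at 5.38 in Alb/AEG-1 and 4.77 in WT arrays, did too. The Kupffer cell markers Clec4f and Vsig4 gave 0.06 (adjusted p = 0.708) and 0.12 (adjusted p = 0.214). These 8 markers were named after their values were seen. Of 14 sinusoidal endothelial markers 3 rose and 0 fell, with a summed level of 10.28 to 10.38 in Alb/AEG-1 and 10.04 to 10.20 in WT arrays, which do not overlap. Stellate cell markers, 1 of 12 risen, summed to 10.13 to 10.20 in Alb/AEG-1 and 10.02 to 10.12 in WT arrays. Cholangiocyte markers, 1 of 6 risen, summed to 8.41 to 8.48 in Alb/AEG-1 and 8.20 to 8.27 in WT arrays. The cholangiocyte marker that rose was Epcam (1.52), while the brightest, Sox9, gave -0.02 (limma adjusted p = 0.891). Both were named after their values were seen. Neutrophil markers had 0 of 8 past the threshold and T, NK and B cell markers 0 of 9, each with summed levels that overlapped between the genotypes, and erythroid markers had 1 higher and 1 lower of 6. RMA gives no level of 0, so no marker could be called absent. The part of these cells in the Hmox1 and Srxn1 differences was not tested. A change in the number of cells of a type and a change in RNA per cell cannot be told apart in bulk RNA.

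Glutathione synthesis starts with glutamate-cysteine ligase, made of the catalytic subunit GCLC and the modifier GCLM. Gclc read 12.34, 12.27 and 12.22 in Alb/AEG-1 arrays, against 12.14, 12.25 and 12.15 in WT arrays, which overlap at WT replicate 2 (0.10, 95% confidence interval -0.04 to 0.24, adjusted p = 0.340). Its second probe set, 1455959_s_at, gave 0.12 (adjusted p = 0.218 over all probe sets) without overlap. Gclm read 10.92, 10.87 and 10.90 in Alb/AEG-1 arrays, against 10.84, 10.92 and 10.81 in WT arrays (0.04, 95% confidence interval -0.09 to 0.17, adjusted p = 0.695). The upper bound of the interval for the second Gclc probe set was 0.25. For Srxn1 the interval was 0.36 to 0.61 on the brightest probe set and 0.11 to 0.41 on the dimmest. The dimmest thus overlaps the intervals of Gclc and Gclm, and whether these genes differ in their change was not tested. Gss, the synthetase of the next step, rose by 0.28 (SE 0.05, adjusted p = 0.0105), and glutathione reductase Gsr gave 0.07 (adjusted p = 0.513), both chosen for their role after their values were seen.

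Slc7a11 encodes the cystine importer xCT, which supplies cysteine for glutathione. Its single probe set was near the floor of the array, at 3.71, 3.43 and 3.57 in Alb/AEG-1 arrays and 3.45, 3.52 and 3.26 in WT arrays, under the array median of 5.63 (0.16, 95% confidence interval -0.06 to 0.37, adjusted p = 0.321). RMA compresses differences at such low signals. Slc3a2, the heavy chain that carries xCT and other amino acid transporters to the membrane, fell by 0.59 (SE 0.06, adjusted p = 0.000766), with 8.54, 8.58 and 8.49 in Alb/AEG-1 and 9.15, 9.20 and 9.03 in WT arrays. Ggct, which acts in the breakdown of glutathione, fell by 0.70 (adjusted p = 0.000636) on its brighter probe set and gave -0.17 (adjusted p = 0.352) without probe sets that may match several transcripts.

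Nqo1 encodes the quinone reductase that is widely read as a marker of NRF2 activity, and here it had the most negative difference of the members. It read 5.37, 5.70 and 5.57 in Alb/AEG-1 arrays, against 5.79, 6.08 and 5.75 in WT arrays, with every Alb/AEG-1 array below every WT array by at least 0.0498. The difference of -0.33 (SE 0.11, 95% confidence interval -0.59 to -0.07) had an unadjusted limma p of 0.0193 and an adjusted p of 0.0909. Its signal was near the array median and its SDs of 0.17 in Alb/AEG-1 and 0.18 in WT arrays were the widest of the members. A fit with a variance trend called it lower (adjusted p = 0.0457), as did the replicate block (adjusted p = 0.0435), although the replicate numbers were not taken as pairs. It did not pass with any 1 array left out (limma adjusted p = 0.0764 to 0.232).

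Osgin1, which encodes a growth inhibitor induced by oxidative stress, read 9.33, 9.30 and 9.35 in Alb/AEG-1 arrays, against 9.41, 9.48 and 9.45 in WT arrays. The genotypes did not overlap, but the difference was small (-0.12, SE 0.05, 95% confidence interval -0.24 to 0.01, adjusted p = 0.195). Nqo1 and Osgin1 were thus lower on each Alb/AEG-1 array, while Srxn1, Hmox1 and Nfe2l2 were higher on each.

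**Figure D3:**
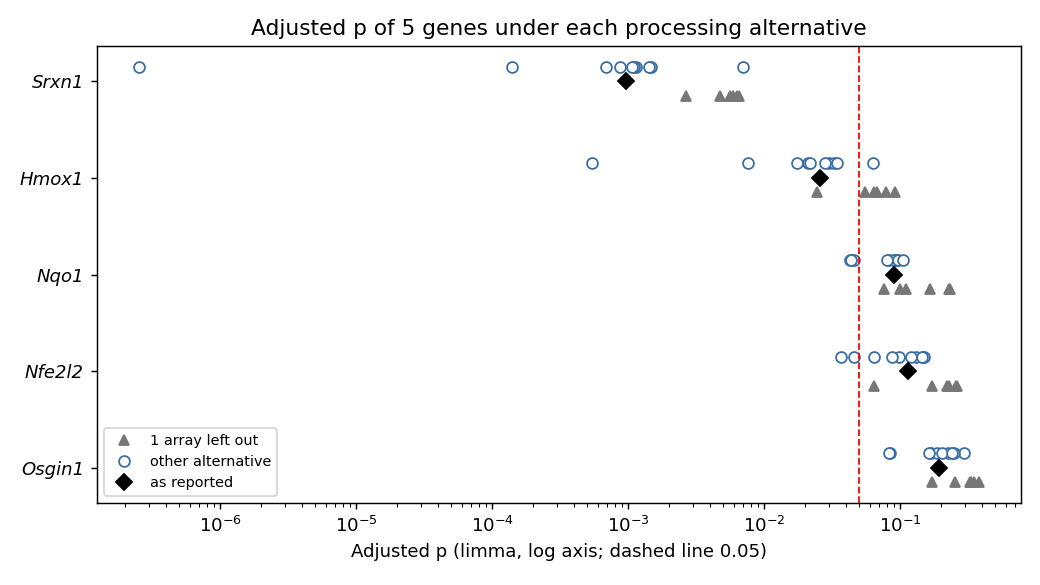
Adjusted p from limma (log axis, x) for the 5 members whose genotypes do not overlap (rows), as reported (black diamonds), with 1 array left out (grey triangles) and under the other 10 alternatives (open circles). The dashed line is the threshold of 0.05. Srxn1 stays left of it throughout, Hmox1 lies on both sides, and Nqo1 and Nfe2l2 cross it under 3 and 2 alternatives. In each case 1 of these is the filter on dim genes. Nqo1 clears it by its mean over all arrays, while its Alb/AEG-1 mean of 5.54 lies under the median signal of 5.63 over all arrays.

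Among the WT arrays 1 stood high for most members. WT replicate 2 had the highest WT value for 9 of the 10 members, all but Srxn1, whereas it was the highest WT array for 30.4% of all genes and for 33.0% of genes above the array median. Its median deviation from the WT mean was 0.07 over the members and -0.01 over all genes. The same array had the lowest WT summed level of Kupffer cell (11.30), endothelial (10.04) and stellate cell markers (10.02) and the highest of hepatocyte markers (16.98), and their part in these values was not tested. Among Alb/AEG-1 arrays, replicate 1 was highest for 7 members and for 30.5% of all genes. Without WT replicate 2 the difference was 0.22 for Nfe2l2 (adjusted p = 0.0639) and -0.22 for Nqo1 (adjusted p = 0.228), so that leaving this array out raised the first and shrank the second.

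Thioredoxin reductase, glutathione reductase and NQO1 use NADPH as reductant, and NRF2 is known to induce genes that supply it. Of 8 genes on this list 7 were measured, all but G6pdx. Among them 4 fell, 0 rose and 3 did not pass, with a median of -0.28. Me1, malic enzyme, fell by 0.57 (SE 0.08, adjusted p = 0.00212), with 10.53, 10.73 and 10.47 in Alb/AEG-1 arrays and 11.19, 11.15 and 11.10 in WT arrays. The pentose phosphate genes Taldo1, Pgd and Tkt fell by 0.35, 0.31 and 0.28 (adjusted p = 0.00571, 0.0200 and 0.0149). The Tkt call was lost without transgenic replicates 1 or 3 (adjusted p = 0.0554 and 0.0559) and without probe sets that may match several transcripts (-0.19, adjusted p = 0.0787). The Pgd call was lost without wild-type replicates 2 or 3 (adjusted p = 0.0674 and 0.0511) and, narrowly, without transgenic replicate 3. Of the list, 2 genes passed without transgenic replicate 3. Without probe sets that may match several transcripts 1 passed, but Taldo1 and Pgd gave no value there.

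Conjugation and export genes that NRF2 can induce went both ways, with 2 risen, 6 fallen and 18 not past the threshold among 26 measured, and a median of -0.05. Mgst3, a microsomal glutathione transferase gene, fell by 1.36 (SE 0.06, adjusted p = 7.87e-06), but its other probe set gave 0.13. Gstm2 fell by 0.81 (SE 0.05, adjusted p = 6.37e-05) and the carboxylesterase gene Ces1g fell by 0.38 (adjusted p = 0.0135), a call lost without wild-type replicate 2 (adjusted p = 0.0513). Gstp1, a glutathione transferase gene, rose by 0.30 (SE 0.06, adjusted p = 0.00865). Glutathione transferase genes are near-identical in places, and the probe sets may not tell them apart. Between 3 and 6 genes of this list passed when 1 array was left out, the fewest without wild-type replicate 2.

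Slc7a11 and Hmox1 also answer to other stress factors, whose targets were listed for comparison. ATF4 targets, the amino acid response, gave 8 risen and 1 fallen of 18 measured, with a median of 0.16. The serine synthesis gene Psat1 rose by 1.16 (SE 0.08, adjusted p = 6.06e-05), Asns, asparagine synthetase, by 1.21 (adjusted p = 0.000102) and Trib3, a pseudokinase gene, by 0.49 (adjusted p = 0.000881), while Slc3a2, given above, was the one that fell. Atf4 itself, chosen likewise after its value was seen, gave -0.11 (adjusted p = 0.239). Heat shock genes gave 3 risen and 3 fallen of 11, with a median of -0.13. The chaperone genes Hspa1b, Hspa1a and Hsph1 rose by 0.73, 0.65 and 0.52 (adjusted p = 0.00216, 0.00168 and 0.00136), and the cochaperone gene Dnajb1 fell by 1.29 (adjusted p = 1.03e-05). Hspa1a and Hspa1b are near-identical copies whose probe sets may share signal.

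Enzymes that produce oxidants gave 0 risen and 2 fallen of 10 measured, with a median of 0.03. Xdh, xanthine dehydrogenase, fell by 0.34 (SE 0.05, adjusted p = 0.00366). Maoa, a monoamine oxidase gene, fell by 0.34 (SE 0.09, adjusted p = 0.0365), a call lost in 5 of 6 leave-outs, all but that of wild-type replicate 2, with an adjusted p of up to 0.116, and also lost after quantile normalization and with the replicate block (adjusted p = 0.0571 and 0.0664).

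**Figure D4:**
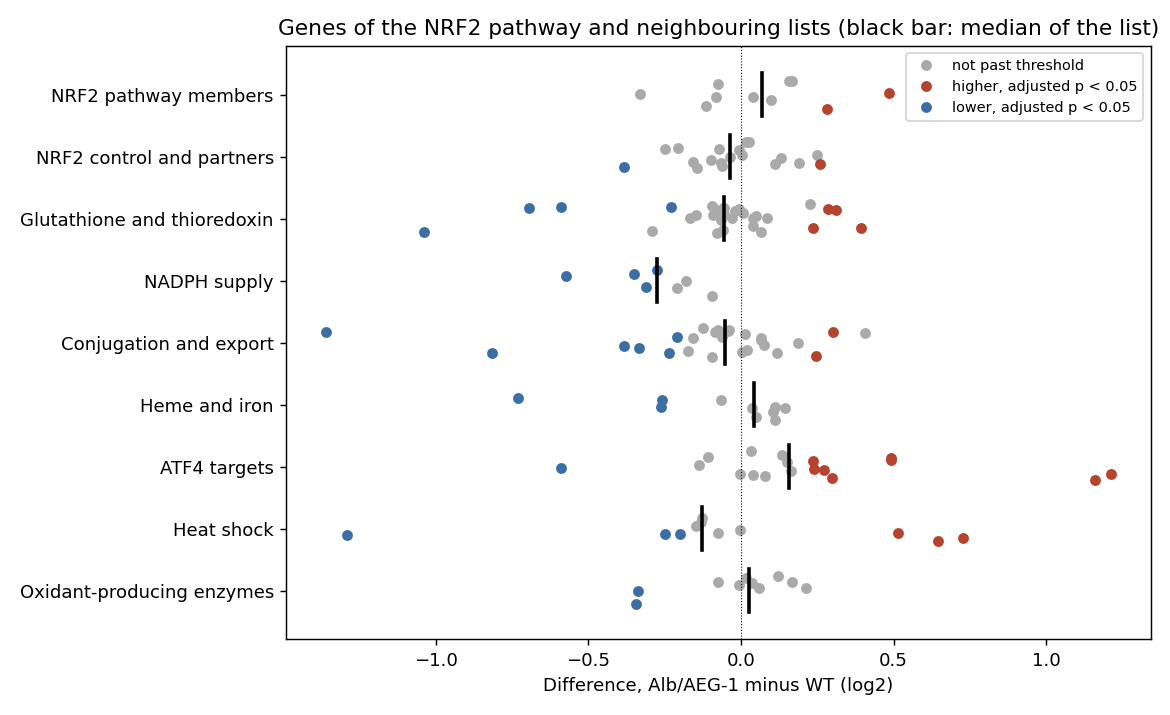
Difference between genotypes, Alb/AEG-1 minus WT (log2, x axis), for each measured gene of the members and of 8 further lists (rows). Points are genes, red past the threshold as higher, blue as lower, grey not past it, and black bars are list medians. NADPH supply has the lowest median, -0.28, and ATF4 targets the highest, 0.16, while the members lie around 0.07.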

How the data were processed

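The authors deposited log2 expression values per probe set, computed by RMA with Expression Console according to the submitters' processing notes. Neither its version nor a statement that the 6 arrays were processed jointly was given in the sources used here. RMA equalises distributions between arrays, so a change shared by most genes is removed, and it compresses differences at low signal. Arrays have no read depth, and their number limits the precision.

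Of 22690 probe sets, 64 were controls and 20380 carried 1 gene symbol, 691 several and 1555 none. Each of 12393 genes was represented by the probe set with the highest mean. Genotypes were compared with limma 3.58.1 in R 4.3.3 (lmFit, eBayes, two-sided), adjusted by Benjamini-Hochberg over all genes at a threshold of 0.05, and again over all 22626 non-control probe sets. Differences are Alb/AEG-1 minus WT. The procedure was tested on simulated data. Summed marker levels are log2 of the sum of linear signals. Lists are given by counts and medians only. Named genes are the members, Mtdh, and up to 4 called genes with the smallest p per list. Others, named for a known role or as cell markers, were chosen after their values were seen. Members and lists were chosen with earlier results of these data known.

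Samples are labelled biological replicates, with no word on separate animals or cultures, so each p-value reflects only the spread among these samples, which may be technical. Deviations of same-numbered arrays correlated at -0.01, -0.01 and 0.10, so the numbers were not taken as pairs. Alternatives covered gene representation, a filter on dim genes, scaling, the variance prior, array weights, a replicate block, leaving out each array and testing every probe set. The filter kept genes whose mean over all arrays exceeded the median of the mean signals of non-control probe sets. Where an alternative is named by genes above the median, this cut-off is meant.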

Additional observations from a re-analysis of the deposited data

How the results depend on the processing

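Of the members, Srxn1, Gclc, Gclm, Txnrd1, Slc7a11 and Osgin1 kept their direction and their side of the threshold under every alternative that gave a value. Txnrd1 gave none without probe sets that may match several transcripts, and Slc7a11 none among genes above the array median. Keap1 changed sign with the mean of its probe sets (0.019). Nfe2l2, at 0.17, passed among genes above the median and with a variance trend, and Nqo1, at -0.33, under these and with the replicate block (adjusted p = 0.0435). However, Nqo1 clears the filter by its mean over all arrays, while its Alb/AEG-1 mean lies under the median signal of 5.63 over all arrays. Hmox1, at 0.28, did not pass with the replicate block (adjusted p = 0.0637), and gave 0.24 to 0.33 with 1 array left out. Members called numbered 4 among genes above the median and with a variance trend, and 1 to 2 with 1 array left out, and genes called numbered 1267 to 1700 with 1 array left out, the fewest without transgenic replicate 1, against 1967. The cause of these moves was not tested, except that leaving out an array leaves fewer samples.

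Repeats of the other lists were added after seeing the data. The NRF2 control list had 0 genes called with the mean of probe sets, 7 among genes above the median, 5 with a variance trend, 4 with array weights and 1 to 3 with 1 array left out. NADPH supply had 1 without probe sets that may match several transcripts, where Taldo1 and Pgd gave no value, and 2 to 4 with 1 array left out. Conjugation and export had 4 without such probe sets, where Gstp1 gave no value. That list had 13 with a variance trend, 5 when every probe set was tested and 3 to 6 with 1 array left out. Heme and iron had 5 with a variance trend and 1 to 3 with 1 array left out, the fewest without transgenic replicate 1. Oxidant-producing enzymes had 1 after quantile normalization, 1 with the replicate block and 1 to 2 with 1 array left out. The deviations of equally numbered arrays correlated at -0.01, -0.01 and 0.10, which is not enough to take the numbers as pairs, and the block moved the count of all genes called to 1505.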
